A study of Mus musculus with 6 samples.

Results

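The genes described here are 35 mouse genes that mark macrophages and other leukocytes, or feed macrophages, read from RNA sequencing of cultured mouse ovary. They were taken by symbol, with no threshold on their values, from a list drawn up with earlier results of these data known, and all 35 were found among the 26329 genes of the deposited table. In 3 Control libraries the ovary was cultured with the solvent DMSO, and in 3 ISRIB libraries it was cultured with ISRIB in DMSO, so the solvent is common to both groups. ISRIB is a small molecule that counters the block on protein synthesis imposed by the integrated stress response, and the study asked whether inhibiting that response activates primordial follicles, the resting follicles of the ovary, through the mTOR pathway. Its wider design includes newborn ICR mice given injections, but these 6 libraries are labelled as cultured ovary, with the age and strain of the donors, the dose, the culture time and the number of ovaries per library not given in the sources used here. Nothing says that the libraries of a group came from separate cultures or animals, so a p-value here weighs a difference against the scatter among these libraries alone, and that scatter may be technical.

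Macrophages live in the ovary from before birth, clear dying cells and secrete growth factors and proteases. They depend on the cytokine CSF1, made largely by other cells of the tissue, which binds the receptor CSF1R on their surface, and on the transcription factor PU.1, the product of Spi1. Resident macrophages are also a main source of complement C1q, and they sense immune complexes and lipids through receptors that signal by the adaptors FCER1G and TYROBP. An explanted ovary has no circulation, so no new monocytes arrive during culture.

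Values are FPKM, read numbers divided by gene length and library size, which set genes of different length on 1 scale. The reads behind the FPKM came to 34474821 to 38002135 per library. The ovarian identity of the libraries was seen in the granulosa cell factor Foxl2, with a mean of 148 FPKM in Control and 148 FPKM in ISRIB, and in the oocyte growth factor Gdf9, with 113 and 132 FPKM. Hemoglobin and immediate early genes did not stand at a like level in all libraries. The summed FPKM of 8 red cell genes was 40.5 to 75.4 in Control, 328 in ISRIB 1, 75.8 in ISRIB 2 and 72.4 in ISRIB 3. Among 15 immediate early genes, which respond within minutes to handling and other stimuli, the sum was 457 in Control 2 and 717 in ISRIB 1, against 218 to 266 in the other libraries. The part of these differences in the results below was not tested.

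By their mean over the 6 libraries the 35 genes spanned from 0.0414 FPKM for Cd163, a scavenger receptor for hemoglobin, to 28.9 FPKM for Lyz2, the macrophage lysozyme. The median was 3.24 FPKM. There were 6 genes above 10 FPKM, 19 between 1 and 10, and 10 below 1, of which 6 were under 0.5. The genes above 10 were Lyz2, the actin bundler Lcp1, C1qa, C1qc, the lysosomal glycoprotein Cd68 and the invariant chain Cd74. The lowest were the T cell receptor chain Cd3e, the B cell receptor chain Cd79a and Cd163.

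**Figure D1:**
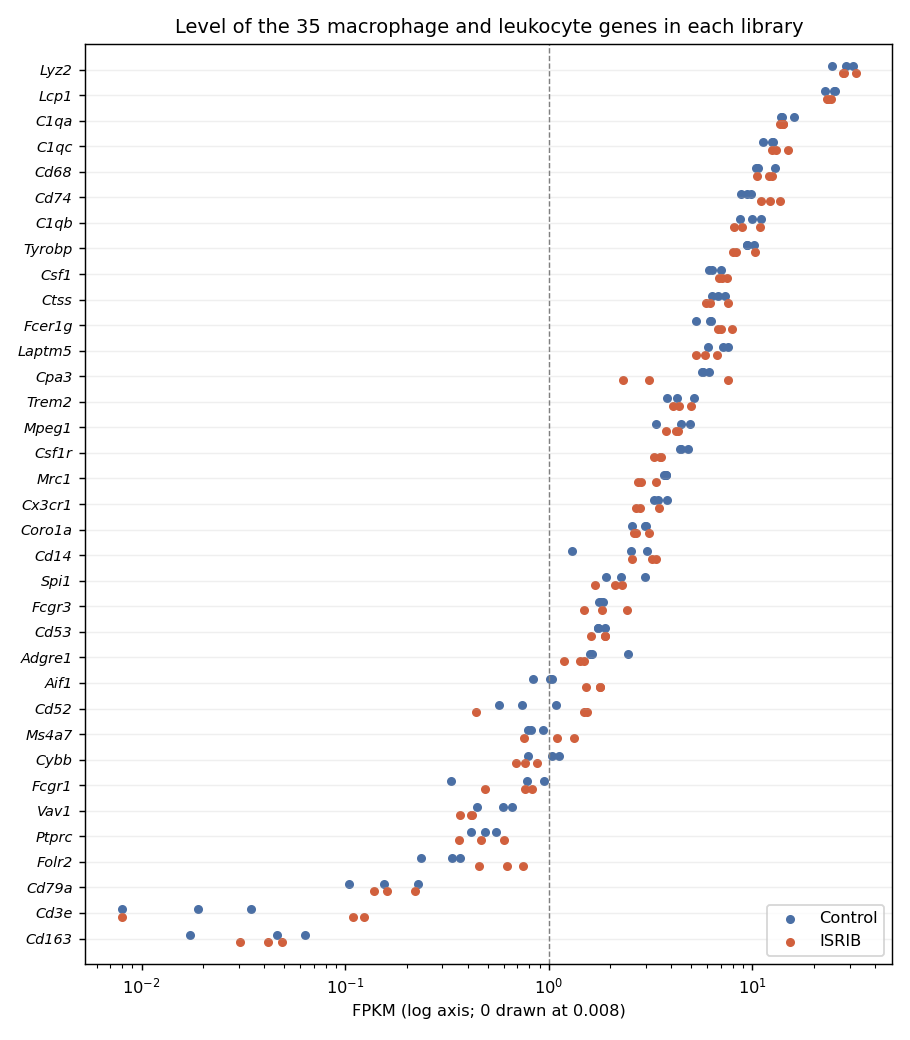
FPKM (log axis) of each of the 35 genes in each library, ordered by the mean over the 6 libraries; blue points are the 3 Control libraries, red points the 3 ISRIB libraries, and the dashed line marks 1 FPKM. Lyz2 and Lcp1 sit at the top, Cd163 and Cd3e at the bottom, and for most genes the red and blue points mix.

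The summed level of the genes overlapped between the groups. Leaving out Csf1, which other cells make, the sum over 34 genes was 172.6, 190.2 and 190.4 FPKM in Control 1, 2 and 3, and 187.5, 182.9 and 184.9 FPKM in ISRIB 1, 2 and 3. The lowest library was Control 1, and the ISRIB libraries all lay inside the Control range. The means were 184.4 ± 10.2 (SD, n = 3) and 185.1 ± 2.33 (SD, n = 3), a ratio of 1.004 (ISRIB over Control). Lyz2 and Lcp1 alone made up 27.4% to 30.9% of the sum, and without them the means were 131.7 ± 5.81 and 131.9 ± 4.95 (SD, n = 3 each). In whole tissue, fewer cells of a type and less RNA per cell cannot be told apart. The 34 genes include the mast cell gene Cpa3, and whether other ovarian cells express some of the 34 was not tested.

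The comparison of ISRIB with Control was fitted over all 12922 genes with a mean of at least 1 FPKM, with limma on log2(FPKM + 0.5). A fold change on that scale understates the change of a low gene. Of the 35 genes, 25 passed that filter. None had an adjusted p under 0.05, and over all genes the share was likewise 0%, 0 of 12922. At an unadjusted p under 0.05 there were 5 of the 25 (20%), against 16.4% of all genes. These were Aif1, Cd74 and Fcer1g, higher in ISRIB (8.71% of all genes met this threshold in that direction), and Csf1r and Mrc1, lower (7.73%). In voom, a limma fit on the read numbers recovered from the FPKM, 4 of the 25 had an unadjusted p under 0.05 (17.4% of all genes) and 0 an adjusted p under 0.05 (0.913% of all genes), with 0.0752 the smallest among them. With the trend over gene length described below also taken out of the voom fit, the count was again 0 of 25 (0.178% of all genes).

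In 6 of the 25 the groups did not overlap (24%), close to the 22.8% of all genes tested. The same 3 genes lay above Control in every ISRIB library (10.8% of all genes), and Csf1r, Mrc1 and Adgre1 lay below (12%). In all, 10 of the 25 had a higher and 15 a lower mean log2 value in ISRIB, where 51.8% of all genes were higher. The median log2 fold change was -0.03, against 0.01 over all genes. The median size of the difference, whatever its sign, was 0.14 for the 25 and 0.08 for all genes. The genes were not matched for level or read number, and low reads widen the scatter. These sizes therefore do not show that the 25 differ more than genes of a like level.

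**Figure D2:**
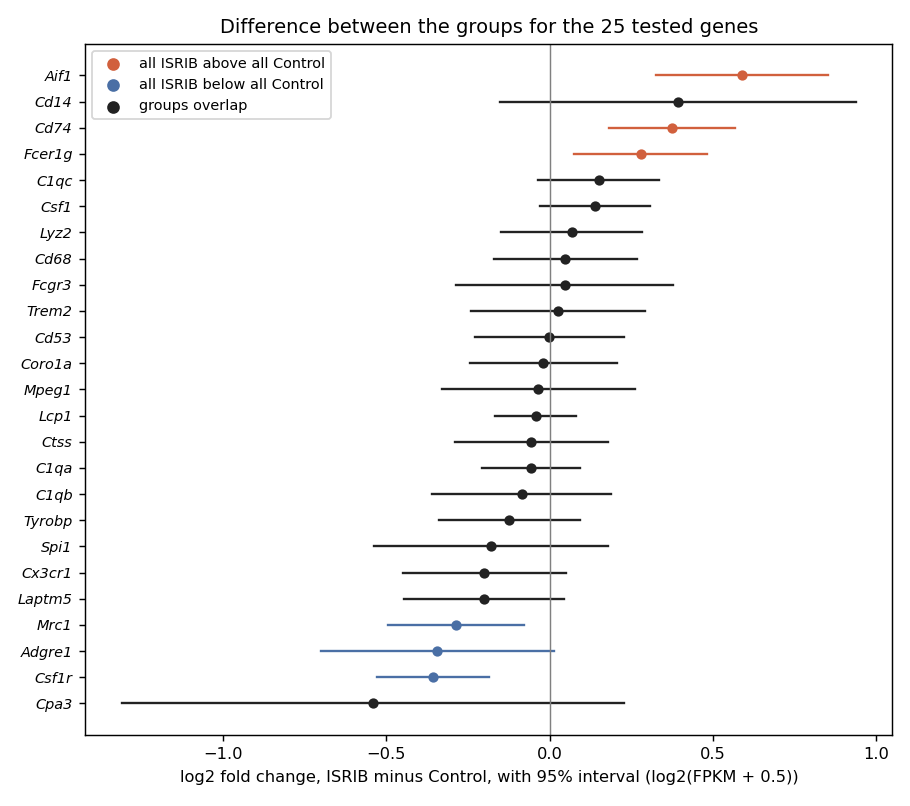
log2 fold change (ISRIB minus Control, on log2(FPKM + 0.5)) of the 25 tested genes with its 95% interval from the limma fit; red marks genes higher in every ISRIB library than in any Control library, blue those lower in every one, black the rest. Aif1 (0.59) and Cpa3 (-0.54) lie farthest from 0, and the interval of Cpa3 is the widest.

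The growth factor axis of the macrophage comprises Csf1, Csf1r and Spi1. Csf1r, the receptor for CSF1 and IL-34, was at 4.39, 4.81 and 4.47 FPKM in Control 1, 2 and 3 and at 3.51, 3.29 and 3.54 FPKM in ISRIB 1, 2 and 3. Every ISRIB library lay below every Control library, and the spread within each group was small next to the gap. The means were 4.56 ± 0.223 and 3.45 ± 0.139 FPKM (SD, n = 3 each), and the log2 fold change was -0.36 (SE 0.074, limma adjusted p = 0.101), on 475 to 716 reads per library. Its exons overlap those of Hmgxb3 on the opposite strand, and whether reads were counted by strand is not given in the sources used here. Hmgxb3 itself had a mean of 10.5 FPKM in Control and 10.1 FPKM in ISRIB (log2 fold change -0.05, limma adjusted p = 0.768). Such an overlap on the opposite strand was annotated for 7 of the 35 genes, the others being Coro1a, Cd52, Lcp1, Folr2, Cx3cr1 and Cd3e.

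The ligand Csf1 was at 7.01, 6.10 and 6.31 FPKM in Control and 7.11, 6.86 and 7.52 FPKM in ISRIB. The groups overlapped through Control 1, and the log2 fold change was 0.14 (SE 0.073, limma adjusted p = 0.384). Il34, the second ligand of the receptor and no member of the 35, had means of 11.1 ± 0.293 and 11.3 ± 1.81 FPKM (log2 fold change 0.01, limma adjusted p = 0.956). Spi1, the lineage factor, was at 2.25, 1.92 and 2.98 FPKM in Control and 2.11, 1.69 and 2.30 FPKM in ISRIB. Its groups overlapped, and its log2 fold change of -0.18 (limma adjusted p = 0.600) came to -0.03 without Control 3, the library with its highest value. Of the other colony-stimulating factors and their receptors, 3 of 8 listed genes were tested, all with a higher mean in ISRIB (51.8% of all genes) and none past the test.

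The surface receptors split by level. Mrc1, the mannose receptor of tissue macrophages (GENCODE M21 gene body chr2:14229392-14332057, plus strand), was at 3.78, 3.69 and 3.76 FPKM in Control and 3.37, 2.75 and 2.84 FPKM in ISRIB. The Control libraries were nearly equal and all above the ISRIB libraries, of which ISRIB 1 was the highest. The log2 fold change was -0.29 (SE 0.090, limma adjusted p = 0.188). Adgre1, which encodes the macrophage antigen F4/80 (chr17:57358691-57483527, plus strand), was at 2.46, 1.59 and 1.63 FPKM in Control and 1.19, 1.42 and 1.49 FPKM in ISRIB. The groups did not overlap, but the highest ISRIB value was close to those of Control 2 and 3, and Control 1 stood well above. Its log2 fold change was -0.34 (SE 0.154, limma adjusted p = 0.318) and -0.18 without Control 1 (adjusted p = 0.570 in the same limma fit).

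Cx3cr1, the fractalkine receptor, had means of 3.49 ± 0.264 and 2.99 ± 0.441 FPKM, with overlapping groups (log2 fold change -0.20, limma adjusted p = 0.399). Cd68 had means of 11.3 ± 1.32 and 11.7 ± 1.05 FPKM (log2 fold change 0.05, limma adjusted p = 0.837). Cd14, the lipopolysaccharide co-receptor, was at 1.29, 3.04 and 2.54 FPKM in Control and 3.36, 2.55 and 3.2 FPKM in ISRIB. Control 1 alone was low, and the log2 fold change of 0.39 (limma adjusted p = 0.446) came to 0.10 without it. Folr2, a folate receptor of tissue-resident macrophages, was under the filter, at 0.366, 0.333 and 0.235 FPKM in Control and 0.455, 0.625 and 0.749 FPKM in ISRIB. All its ISRIB values lay above all its Control values, on 12 to 36 reads per library, and in the limma fit without the filter its log2 fold change was 0.45 (adjusted p = 0.339). Gm10602, whose exons overlap Folr2 on the opposite strand, was higher than Folr2, with means of 3.08 FPKM in Control and 2.88 FPKM in ISRIB. Ms4a7, also a macrophage surface gene, had means of 0.849 ± 0.0810 and 1.06 ± 0.287 FPKM with overlapping groups, and Cd163 had 3 to 10 reads per library.

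Among the Fc receptors and the signalling adaptors, Fcer1g stood apart. It encodes the gamma chain shared by Fc receptors (chr1:171229572-171234365, minus strand) and was at 5.27, 6.29 and 6.16 FPKM in Control and 7.93, 7.05 and 6.82 FPKM in ISRIB. The ISRIB libraries were all higher, with ISRIB 1 the highest. The log2 fold change was 0.28 (SE 0.088, limma adjusted p = 0.194). In voom its unadjusted p was 0.110 (adjusted p = 0.401), and with the length trend removed the log2 fold change was 0.17 (limma adjusted p = 0.437). Tyrobp, the sister adaptor also known as DAP12, had means of 9.67 ± 0.490 and 8.88 ± 1.20 FPKM with overlapping groups (log2 fold change -0.12, limma adjusted p = 0.546). Its partner receptor Trem2 had means of 4.42 ± 0.679 and 4.49 ± 0.456 FPKM (log2 fold change 0.03, limma adjusted p = 0.932). The low-affinity IgG receptor Fcgr3 had means of 1.81 ± 0.0360 and 1.91 ± 0.471 FPKM, and its log2 fold change of 0.05 (limma adjusted p = 0.900) was -0.10 without ISRIB 1. The high-affinity receptor Fcgr1, under the filter, had means of 0.689 ± 0.321 and 0.691 ± 0.180 FPKM.

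The effectors of the phagocyte held the widest gap, in Aif1. Aif1, also called IBA1, is an actin-binding protein used to stain macrophages and microglia (chr17:35170991-35176068, minus strand). It was at 1.03, 0.836 and 1.01 FPKM in Control and 1.52, 1.77 and 1.78 FPKM in ISRIB. The groups were well apart, with means of 0.960 ± 0.108 and 1.69 ± 0.146 FPKM (SD, n = 3 each) and a log2 fold change of 0.59 (SE 0.114, limma adjusted p = 0.0995). This rests on 33 to 68 reads per library, and its Control mean alone would not have passed the filter of 1 FPKM. Next below that filter were Cd52 and Ms4a7. Cd52, a small surface glycoprotein of leukocytes, was at 0.741, 0.569 and 1.09 FPKM in Control and 0.437, 1.55 and 1.49 FPKM in ISRIB, so that ISRIB 1 was the lowest of the 6 and the other 2 ISRIB libraries the highest.

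Cd74, which escorts MHC class II molecules to the endosome, was at 8.77, 9.85 and 9.39 FPKM in Control and 13.6, 12.2 and 11.02 FPKM in ISRIB. All ISRIB libraries were above all Control libraries, and the log2 fold change was 0.37 (SE 0.083, limma adjusted p = 0.117), on 433 to 700 reads. The class II chains that it escorts were tested too. H2-Aa was at 4.85, 4.89 and 4.12 FPKM in Control and 8.48, 4.80 and 8.15 FPKM in ISRIB. ISRIB 2 lay among the Control libraries, so the groups overlapped (log2 fold change 0.54, limma adjusted p = 0.228). Of 9 class II genes listed, 3 passed the filter, all 3 with a higher mean in ISRIB (51.8% of all genes) and none past the test. The groups of H2-Eb1 and H2-Ab1 overlapped too (log2 fold change 0.25 and 0.16, limma adjusted p = 0.559 and 0.797). The highest H2-Ab1 library was Control 2, at 2.64 FPKM.

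The other effectors overlapped between the groups. Lyz2 had means of 28.2 ± 3.44 and 29.5 ± 2.34 FPKM (log2 fold change 0.07, limma adjusted p = 0.763), and its near copy Lyz1 was at 0.0349 and 0.0355 FPKM. The protease Ctss had a log2 fold change of -0.06 and the pore-forming protein Mpeg1 one of -0.03, both with overlapping groups. Cybb, the membrane subunit of the phagocyte oxidase, was under the filter with means of 0.981 ± 0.173 and 0.777 ± 0.0899 FPKM.

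**Figure D3:**
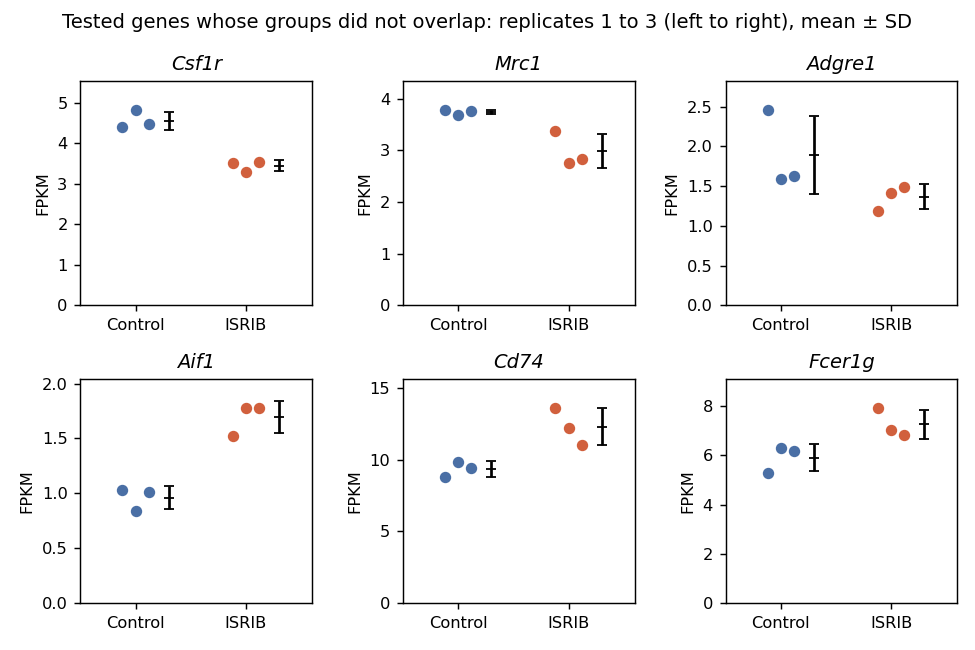
FPKM in each library (points, replicates 1 to 3 from left to right, which have no order) and mean ± SD (bars) of the 6 tested genes whose groups did not overlap; each vertical axis starts at 0. Csf1r, Mrc1 and Adgre1 lie lower in ISRIB and Aif1, Cd74 and Fcer1g higher, with Control 1 of Adgre1 apart from the other libraries.

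The chains of complement C1q, which assemble into 1 protein in equal numbers, showed no separation. C1qa was at 14.0, 13.8 and 15.9 FPKM in Control and 14.1, 13.7 and 14.1 FPKM in ISRIB. C1qb was at 8.70, 9.95 and 10.996 FPKM in Control and 10.9, 8.14 and 8.88 FPKM in ISRIB. C1qc was at 12.5, 11.2 and 12.6 FPKM in Control and 13.1, 12.5 and 15.03 FPKM in ISRIB. All 3 overlapped between groups, with log2 fold changes of -0.06, -0.09 and 0.15 (limma adjusted p = 0.698, 0.762 and 0.396). Their sum was 36.6 ± 2.60 FPKM in Control and 36.8 ± 2.16 FPKM in ISRIB. C1qb was the lowest chain in every library, and the ratio of C1qa to C1qb ran from 1.29 to 1.68.

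Of 7 genes shared by most leukocytes, 4 passed the filter, all 4 with a lower mean log2 value in ISRIB and with overlapping groups. Over all genes tested, 51.8% were higher. Lcp1 had means of 24.5 ± 1.39 and 23.7 ± 0.542 FPKM, on 3933 to 4815 reads, the most of any gene here (log2 fold change -0.04, limma adjusted p = 0.734). The tetraspanin Cd53 was at 1.79 FPKM in both groups and the actin regulator Coro1a at 2.84 ± 0.245 and 2.80 ± 0.259 FPKM. Exons of Coro1a overlap those of Bola2 on the opposite strand, which was at 57.7 and 59.9 FPKM, and with the strand setting unknown their reads cannot be told apart. Laptm5, a lysosomal protein of blood cells, had means of 6.92 ± 0.787 and 5.94 ± 0.690 FPKM with overlapping groups (log2 fold change -0.20, limma adjusted p = 0.381). Ptprc, which encodes the common leukocyte antigen CD45, was under the filter at 0.485 ± 0.0673 and 0.476 ± 0.122 FPKM. Vav1, a guanine exchange factor of blood cells and also under the filter, was at 0.660, 0.444 and 0.592 FPKM in Control and 0.415, 0.367 and 0.418 FPKM in ISRIB. Its groups did not overlap, though Control 2 lay near the ISRIB libraries, and the limma fit without the filter gave a log2 fold change of -0.24 (adjusted p = 0.514).

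Lymphocyte genes had few reads. Cd3e had 1, 2 and 0 reads in Control and 6, 7 and 0 reads in ISRIB, and 0 reads allow up to 3, which is 0.0514 FPKM in Control 3 and 0.0548 FPKM in ISRIB 3, for counting error only. Cd79a had 4 to 8 reads per library. A list of other lymphoid genes had 23 in the data, of which 4 passed the filter.

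The mast cell gene among the 35, Cpa3, varied more within the ISRIB group than any other tested gene here. It encodes a carboxypeptidase of mast cell granules and was at 5.69, 5.68 and 6.14 FPKM in Control and 7.61, 3.11 and 2.32 FPKM in ISRIB. ISRIB 1 was the highest of the 6 libraries and ISRIB 2 and 3 the lowest. The log2 fold change was -0.54 (SE 0.333, limma adjusted p = 0.457), or -0.99 without ISRIB 1 (adjusted p = 0.0624 in the same fit) and -0.23 without ISRIB 3. The granule proteases Cma1 and Tpsb2, which are not among the 35, followed the same libraries. Cma1 was at 8.65, 7.64 and 10.2 FPKM in Control and 9.96, 6.47 and 4.50 FPKM in ISRIB, and Tpsb2 at 13.9, 12.7 and 17.7 and at 17.0, 10.3 and 7.73 FPKM. Over these 6 libraries each had a Pearson r of 0.95 with Cpa3, ranking 50 and 51 of 12921 genes. Hdc (r = 0.81), Mcpt4 (0.78) and Gata2 (0.67) ranked 564, 739 and 1465. These r values are a description only, since the points share libraries and their depth.

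Slc18a2, a vesicle transporter of monoamines in mast cells and other cells, had another pattern. It was at 31.3, 33.2 and 22.9 FPKM in Control and 14.2, 16.7 and 11.8 FPKM in ISRIB. All ISRIB libraries lay below, ISRIB 1 included, with a log2 fold change of -1.003 (limma adjusted p = 0.0832, and 0.0245 in voom). Its r with Cpa3 was 0.50, rank 2722. Of 11 other mast cell genes measured, 6 passed the filter, all 6 with a lower mean in ISRIB and 1, Slc18a2, without overlap. Over all genes tested, 51.8% had a higher mean and 12% lay below Control in every ISRIB library. The summed FPKM of the 11 was 67.7 to 71.7 in Control and 36.6 to 61.9 in ISRIB. Without Slc18a2 the sum was 40.3, 36 and 44.8 FPKM in Control 1, 2 and 3 and 47.7, 31.4 and 24.8 FPKM in ISRIB 1, 2 and 3, so that the groups overlapped and ISRIB 1 was the highest library.

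**Figure D4:**
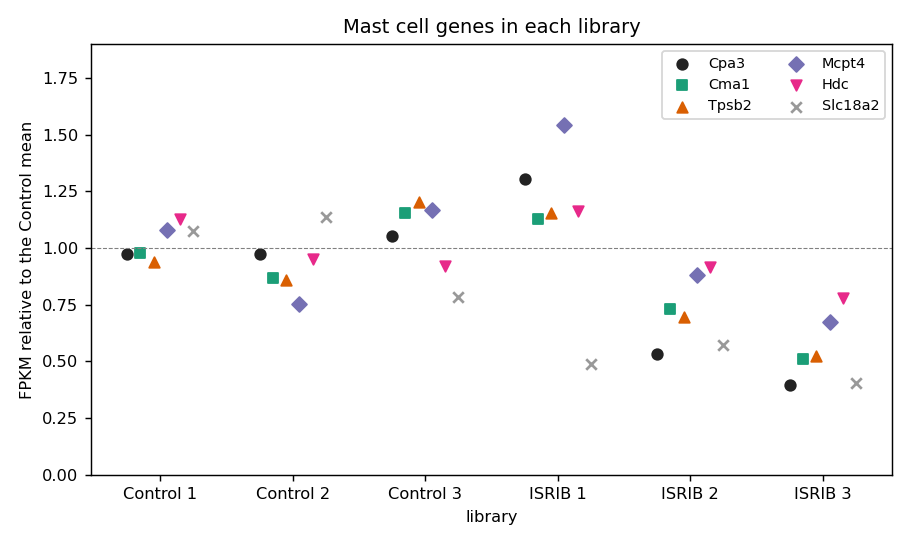
FPKM of Cpa3 and 5 other mast cell genes in each library, each divided by its own Control mean (dashed line at 1). Cpa3, Cma1, Tpsb2 and Mcpt4 are above 1 in ISRIB 1 and below 1 in ISRIB 2 and ISRIB 3, while Slc18a2 is below 1 in all 3.

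Across libraries the correlations among the macrophage genes had both signs. Among 23 of the tested genes, leaving out Csf1 and Cpa3, the 253 pairs had a median Pearson r of 0.06 over the 6 libraries, and 56.1% of the pairs were positive. These are descriptions, since the 6 points share depth and scaling within a library. For some genes the counting error exceeded the spread within a group, as for Tyrobp in Control (7.12% against 5.06%). For others it was smaller, as for Lyz2 in Control (2.98% against 12.2%). The r values therefore cannot show whether the genes move together. The closest positive pair was Fcer1g with Cd74 (r = 0.96, and 0.89 with the group means removed), followed by Spi1 with C1qa (0.92). Negative pairs were as extreme, with -0.98 for Csf1r with Aif1 (-0.74 with the group means removed). Fcer1g with Adgre1 had -0.96 both ways. Csf1r with Mrc1 had 0.88 over the libraries but 0.25 with the group means removed. C1qa had an r of 0.61 with C1qb and 0.11 with C1qc. The 10 genes outside the 35 most like the mean profile of the 23 were Tmcc2 (r = 0.99), Mrps27, Aga, Iqcf5, Samm50, Pus10, Zfp985, Cct5, Fmnl1 and Kif11. None of these is on the marker lists used here.

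Further macrophage genes were read from 3 other lists. Of 128 measured, 76 were tested, 36 with a higher and 40 with a lower mean in ISRIB, with a median log2 fold change of -0.02 and none past the limma test. In 5 (6.58%) all ISRIB libraries lay above, and in 14 (18.4%) all lay below, against 10.8% and 12% of all genes. The surface genes among them had 9 higher and 11 lower of 20, and the signalling and transcription genes 9 higher and 16 lower of 25. Arhgdib, a signalling gene of blood cells, had means of 5.56 ± 0.160 and 4.38 ± 0.189 FPKM (log2 fold change -0.31, limma adjusted p = 0.109), and Dock8, a guanine exchange factor, 1.79 ± 0.160 and 1.26 ± 0.0768 FPKM (-0.38, limma adjusted p = 0.150). Fcgr2b, the inhibitory IgG receptor, was higher in every ISRIB library, with 10.6 ± 0.779 and 12.3 ± 0.600 FPKM (log2 fold change 0.21, limma adjusted p = 0.205).

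The phagocyte effectors in that list had 18 higher and 13 lower of 31. The smallest p was that of Ctsl, a lysosomal protease that many cell types express, at 84.1 ± 2.37 and 99.9 ± 3.81 FPKM (log2 fold change 0.25, limma adjusted p = 0.0987, and 0.0486 in voom). On a list of other complement genes, 9 of 10 tested had a higher mean in ISRIB, against 51.8% of all genes. Of these, 4 lay above Control in every ISRIB library, against 10.8%. The 4 included C1s1, a protease of the C1 complex, at 18.5 ± 1.08 and 22.9 ± 2.10 FPKM (log2 fold change 0.30, limma adjusted p = 0.126), and Cfp, properdin, at 6.17 ± 0.0384 and 7.39 ± 0.419 FPKM (0.24, limma adjusted p = 0.136). They also included C1qbp, a C1q-binding protein rather than a complement component, at 80.7 ± 5.72 and 92.1 ± 5.15 FPKM (0.19, limma adjusted p = 0.215). With the length trend removed, the log2 fold changes of C1s1, Cfp and C1qbp were 0.28, 0.18 and 0.11.

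The difference between groups moved with gene length over the whole table. Across 12922 genes the Spearman rank correlation between log2 fold change and the length implied by the FPKM was -0.36, and across the 25 genes it was -0.38, both as descriptions, since genes are not independent replicates. The 3 genes higher in every ISRIB library are short, with 1041 bases for Aif1, 1432 for Cd74 and 666 for Fcer1g. The 3 lower ones are longer, with 3922 for Csf1r, 5383 for Mrc1 and 3391 for Adgre1. With the length trend taken out of each library, the log2 fold changes were 0.50, 0.30 and 0.17 for the former and -0.36, -0.27 and -0.36 for the latter, with the smallest limma adjusted p 0.196.

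**Figure D5:**
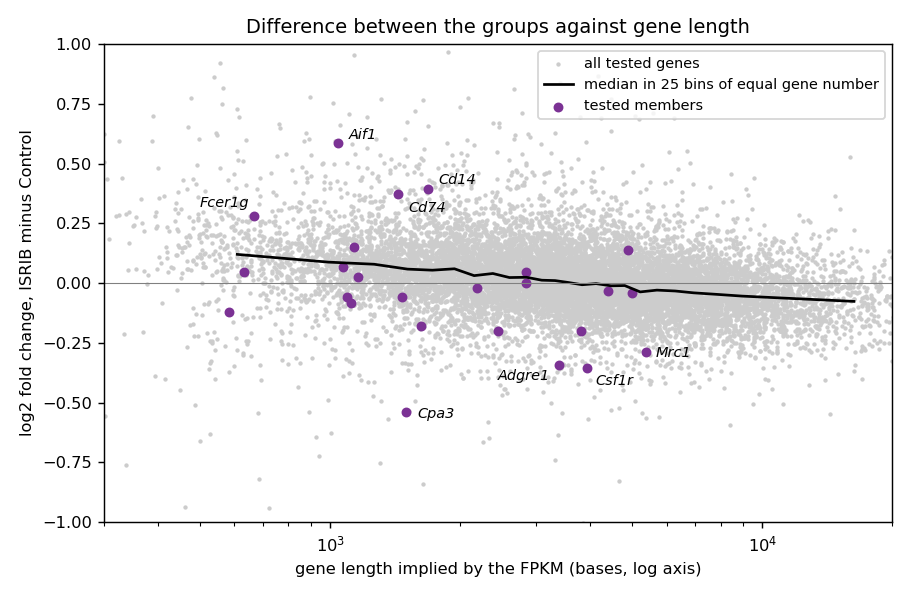
log2 fold change (ISRIB minus Control) against gene length (bases, log axis) for all tested genes (grey), with the median in bins of equal gene number (line) and the 25 genes described here (purple); 163 genes lie outside the axes. The line runs from above 0 for short genes to below 0 for long ones, and Aif1, Cd74 and Fcer1g lie above it, Csf1r, Mrc1 and Adgre1 below.

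Promoters were examined because PU.1, the factor made by Spi1, binds purine-rich DNA upstream of many macrophage genes. RefSeq windows on GRCm38.p6, 250 bases before the RefSeq start, were at hand for 27 of the 35 genes, 33 windows in all. A gene counted as a match if any of its windows held the motif, so more starts gave more chances. The number of windows per gene was not matched between the 27 and all genes. GAGGAA, read on both strands, was in 15 of 27 (55.6%), against 6986 of 27025 genes (25.9%), and GGAAGT in 13 of 27 (48.1%), against 6008 (22.2%). The joined form GAGGAAGT, which holds both, was in 2 of 27 (7.40%), against 755 (2.80%). A match is a description of the letters and not a bound site.

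Windows of 3 of the 6 genes whose groups did not overlap are shown, 1 lower and 2 higher in ISRIB, each 5′ to 3′ on the gene's strand with the motif letters in capitals. Starts here are those of RefSeq. In all 3 genes the GENCODE gene body given above begins before that start, so the end of each window lies inside it. Mrc1 (chr2:14229164-14229413, plus strand) has 4 matches, all as the reverse complement, the nearest 35 bases before the start. Aif1 (chr17:35176053-35176302, minus strand) has 1, also as the reverse complement, 7 bases before the RefSeq start and inside the GENCODE gene body. Fcer1g (chr1:171234350-171234599, minus strand) has none.
Mrc1: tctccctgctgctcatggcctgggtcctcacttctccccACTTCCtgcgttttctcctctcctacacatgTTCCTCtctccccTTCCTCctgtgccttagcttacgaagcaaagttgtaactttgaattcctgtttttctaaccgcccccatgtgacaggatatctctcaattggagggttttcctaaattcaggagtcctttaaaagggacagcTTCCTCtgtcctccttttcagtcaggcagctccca
Aif1: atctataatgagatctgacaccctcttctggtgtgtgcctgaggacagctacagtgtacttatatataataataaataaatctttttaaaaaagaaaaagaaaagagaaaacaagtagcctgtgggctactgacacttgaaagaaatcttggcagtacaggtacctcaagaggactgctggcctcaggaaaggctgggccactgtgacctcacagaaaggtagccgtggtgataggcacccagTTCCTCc
Fcer1g: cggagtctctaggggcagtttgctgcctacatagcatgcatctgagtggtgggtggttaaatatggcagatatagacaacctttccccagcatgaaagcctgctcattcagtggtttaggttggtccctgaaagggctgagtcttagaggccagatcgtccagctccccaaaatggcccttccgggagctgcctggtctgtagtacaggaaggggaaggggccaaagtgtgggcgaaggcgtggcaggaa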

How the data were processed

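The authors deposited 1 table of FPKM for 26329 genes in the 6 libraries, 3 per group by title. Per the submitters' processing notes, the tools were HISAT2, HTSeq, DESeq2, fastp and R 3.2.0, on build mm10, in an order and with settings that are unstated; annotation, strand setting and library totals: not given in the sources used here. FPKM values were whole multiples of 1 read for 100.0% of genes (tolerance 0.01 read), so read numbers and implied lengths were recovered from them; the depth was 34474821 to 38002135 reads per library, and differences within the counting error of few reads cannot be seen.

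Groups were compared with limma 3.58.1 in R 4.3.3 on log2(FPKM + 0.5), with an intensity trend, two-sided, over the 12922 genes with a mean of at least 1 FPKM, with Benjamini-Hochberg adjusted p-values over all of them. The fit was tested on simulated data. Alternatives were other pseudocounts, filters, scalings and weights, the replicate number as a block, voom on recovered reads, removal of the length trend and each library left out. All members are named; from other lists, up to 3 tested genes with the smallest p, and the 10 genes most like the mean profile. Foxl2, Gdf9, Tpsb2, Mcpt4, Hdc and overlapping or near-copy genes fall outside that rule; their choice followed a look at the values. The members and lists were chosen with earlier results of these data known. Positions are from GENCODE M21 and promoter sequences from RefSeq GRCm38.p6.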

Additional observations from a re-analysis of the deposited data

How the results depend on the processing

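Under 20 alternatives no member had an adjusted p under 0.05, and the 6 tested genes whose groups did not overlap kept their direction in every one run for them (20 for Cd74 and Fcer1g; 19 for Csf1r, Mrc1, Adgre1 and Aif1, which are under 5 FPKM). The count over all genes, 0 as reported, was 8 with a filter of 5 FPKM, 16 with array weights, 118 with voom, and, in alternatives chosen after seeing the data, 23 with voom and the length trend removed and 82 with voom and no filter; it was 0 to 0 with a library left out. With the group means removed, libraries with the same number had r = -0.19, -0.09 and 0.19 for numbers 1, 2 and 3. With 3 libraries per group, whose deviations sum to 0, these r values cannot show whether a number marks a shared batch. With the replicate block 11 genes and 0 members were called, against 0 genes without it. The members' median log2 fold change was -0.087 after TPM rescaling, which put the median of all genes at -0.05, and -0.063 to 0.0061 with a library left out (above 0 without Control 3). Members without overlap were 2, Cd74 and Fcer1g, at a filter of 5 FPKM, which took out Csf1r, Mrc1, Adgre1 and Aif1. They were 8 with no filter, over all 35, and 7 after TPM rescaling. The share over all genes was not worked out for these settings, so these counts cannot be read against it. With a library left out, members without overlap were 7 to 10, against 30.3% to 37.8% of all genes (10 without Control 1, against 32.5%, or without ISRIB 2, against 32.3%). The ratio of summed levels was 0.968 to 1.02. Of 488 single-gene values, 460 kept their direction and 28, in 10 genes near 0, did not: with array weights Cd53 0.012, Ctss 0.014 and Trem2 -0.040; with TPM Trem2 -0.023 and Cd68 -0.0026; with the length trend removed (chosen after seeing the data) Trem2 -0.057, Cd68 -0.067 and Lyz2 -0.019, and in voom Trem2 -0.065, Cd68 -0.074 and Lyz2 -0.026. With a library left out, these genes ranged over -0.031 to 0.057 for Cd53, -0.083 to 0.021 for Coro1a, -0.096 to 0.0061 for C1qa, -0.20 to 0.0018 for C1qb, -0.10 to 0.18 for Fcgr3, -0.063 to 0.13 for Trem2, -0.0049 to 0.14 for Cd68, -0.16 to 0.011 for Ctss, -0.029 to 0.14 for Lyz2 and -0.17 to 0.067 for Mpeg1. The other tested genes kept their sign, with ranges of -0.29 to -0.13 for Laptm5, -0.090 to -0.015 for Lcp1, 0.099 to 0.19 for Csf1, -0.38 to -0.32 for Csf1r, -0.30 to -0.034 for Spi1, 0.074 to 0.20 for C1qc, 0.20 to 0.32 for Fcer1g, -0.23 to -0.062 for Tyrobp, -0.43 to -0.18 for Adgre1, 0.10 to 0.59 for Cd14, -0.36 to -0.24 for Mrc1, -0.30 to -0.14 for Cx3cr1, 0.30 to 0.45 for Cd74, 0.52 to 0.64 for Aif1 and -0.99 to -0.23 for Cpa3 when a library was left out; with the length trend removed C1qc was 0.067 and Tyrobp -0.24. The cause of these differences was not tested. Depth limits Aif1, Fcgr1, Cd52, Folr2, Cd163, Cd3e and Cd79a, whose lowest libraries held 0 to 33 reads.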

Other observations

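Genes of the other cell types in the ovary were read beside the leukocyte genes. Of 12 endothelial genes, all tested, 11 had a lower mean in ISRIB and 5 lay below Control in every ISRIB library (12% of all genes did, and 51.8% of all genes had a higher mean), with a median log2 fold change of -0.16 and none past the limma test. Kdr, a receptor for vascular endothelial growth factor, was at 25.2 ± 0.687 FPKM in Control and 21.6 ± 0.723 FPKM in ISRIB (SD, n = 3 each; log2 fold change -0.22, limma adjusted p = 0.109). Cdh5, the cadherin of endothelial junctions, was at 42.3 ± 1.70 and 34.98 ± 2.63 FPKM (log2 fold change -0.27, limma adjusted p = 0.119). Oocyte genes had 9 of 14 higher with a median of 0.10, granulosa genes 7 of 12 higher with a median of 0.11, and stromal genes 6 of 11 higher with a median of 0.04, none past the test.

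Neutrophil genes were mostly under the filter. Of 13 neutrophil genes measured, 2 were tested. Lcn2, an iron-binding protein that epithelia make too, was at 1.01, 0.366 and 0.427 FPKM in Control and 3.64, 0.503 and 2.27 FPKM in ISRIB, with overlapping groups (limma adjusted p = 0.311). Among 15 immediate early genes 14 had a higher mean in ISRIB, against 51.8% of all genes, and none was without overlap, against 22.8%. Their summed FPKM was 717 in ISRIB 1, but 266 in ISRIB 2 and 234 in ISRIB 3. In Control 1, 2 and 3 it was 218, 457 and 232.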
